A study of Mus musculus with 12 samples.

Results

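Early loss of the final zinc finger of the transcription factor Bcl11b and late deletion of its gene were compared directly in mouse thymocytes, mutant against mutant. The libraries were chosen by their sample titles, 3 from newborn Bcl11bm/m mice and 4 from Bcl11bfl/fl:Cd4-Cre mice, 7 of the 12 RNA-seq libraries of the series, and 5 libraries from newborn wild-type mice served as the background level. By source name and methods, all libraries came from sorted CD24hiTCRβlo CD4+CD8+ pre-selection thymocytes of C57BL/6 mice, but the extraction text in the labels describes a different sort, of double-negative NKT cells, so the population rests on the source name, the methods and the markers given below. Bcl11bm carries a frameshift from a targeting vector, so the protein lacks its final zinc finger in every cell from the start of development, still binds its sites, and leaves homozygous pups dying as neonates. In Bcl11bfl/fl:Cd4-Cre mice the Cd4 promoter drives Cre, so the gene is intact through the early double-negative stages and is deleted around the CD4+CD8+ double-positive (DP) stage. The labels do not state how old these mice were, so age and genotype cannot be told apart in this comparison. The mutants also differ in the lesion, a truncated protein against a deleted gene, as well as in its timing. Lesion and timing therefore cannot be told apart either. The sample descriptions name other genotypes than the titles (the wild-type libraries are described as Bcl11bm/m and the Cd4-Cre libraries as Bcl11b+/+), and the titles, which match the design text, were used. Nothing in the labels says that libraries of a group came from separate animals, so p-values measure the spread between these samples, which may be technical.

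Bcl11b is a zinc-finger protein that closes off non-T fates when progenitors commit to the T lineage, and it goes on being expressed in DP thymocytes and mature T cells. DP thymocytes rearrange the T cell receptor (TCR) α chain, await selection by MHC ligands, and then turn on ThPOK (encoded by Zbtb7b) in the CD4-helper lineage or Runx3 in the CD8-cytotoxic lineage. The comparison asks which genes tell a DP cell that never had the complete protein from a DP cell that lost the gene late. Expression was given as FPKM, fragments scaled by transcript length and by the number of mapped fragments, and differences below are Bcl11bm/m minus Bcl11bfl/fl:Cd4-Cre on the log2(FPKM + 1) scale, which understates the change of genes at low levels. In bulk RNA, fewer cells of a type and less RNA per cell cannot be told apart.

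The estimated depth was 2720000 to 4220000 fragments in the Bcl11bm/m libraries, 10800000 to 45380000 fragments in the Bcl11bfl/fl:Cd4-Cre libraries and 3940000 to 6920000 fragments in the wild-type libraries, so depth moved with the mutant group and its part in the results was not tested. In all 12 libraries the markers of the sorted stage were high, with Rag1 at 438 to 1564 FPKM, Cd4 at 281 to 651 FPKM, Cd3e at 321 to 826 FPKM and Cd8a at 591 to 1054 FPKM. Replicate 3 of Bcl11bfl/fl:Cd4-Cre had the lowest Rag1 (438 FPKM) and Rag2 (34.3 FPKM) of the 12. Replicate 1 of Bcl11bm/m had the highest summed myeloid and B cell markers. Across genes, the median Pearson correlation was 0.964 between Bcl11bm/m libraries, 0.967 between Bcl11bfl/fl:Cd4-Cre libraries and 0.935 between libraries of the 2 mutants.

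The targeted gene itself set the mutants apart. Bcl11b (chromosome 12, 109148613 to 109241812, NCBIM37) was at 430, 434 and 482 FPKM in the Bcl11bm/m libraries and at 127, 140, 136 and 115 FPKM in the Bcl11bfl/fl:Cd4-Cre libraries, against 132 to 292 FPKM (median 223) in wild-type. Every Bcl11bm/m library was above every wild-type library, and the Cd4-Cre libraries overlapped the low end of wild-type. The direct difference was 1.79 (SE 0.12, adjusted p = 2.19e-04). In an exact two-sided permutation test, p was 0.0571, the smallest that 35 arrangements of 3 and 4 libraries allow, so such a test cannot reach 0.05. The FPKM covers the whole gene, so it shows neither the frameshift nor which exons the Cd4-Cre libraries had kept.

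Of 10597 genes tested, 1240 (11.7%) differed between the mutants at an adjusted p-value under 0.05, and in 1234 of these the 3 Bcl11bm/m libraries lay wholly above or below the 4 Bcl11bfl/fl:Cd4-Cre libraries. Higher in Bcl11bm/m were 933 genes (8.8%) and lower were 307 (2.9%). The protein-coding genes among them numbered 868 higher and 296 lower. Differences larger than 1 on the log2 scale were found for 288 higher and 121 lower genes. The split depended on the scaling of the libraries. As deposited, 75.2% of the calls were higher in Bcl11bm/m and the median difference of all genes was 0.095, whereas the share was 65.3% after rescaling without short RNAs, 54.3% with median-ratio scaling and 49.2% with quantile normalization, where the median was -0.02. The total was 1073, 1193 and 1236 genes in these 3 scalings. It fell to 496 without Bcl11bm/m replicate 2, to 414 without Bcl11bm/m replicate 3 and to 538 without Bcl11bfl/fl:Cd4-Cre replicate 1.

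**Figure D1:**
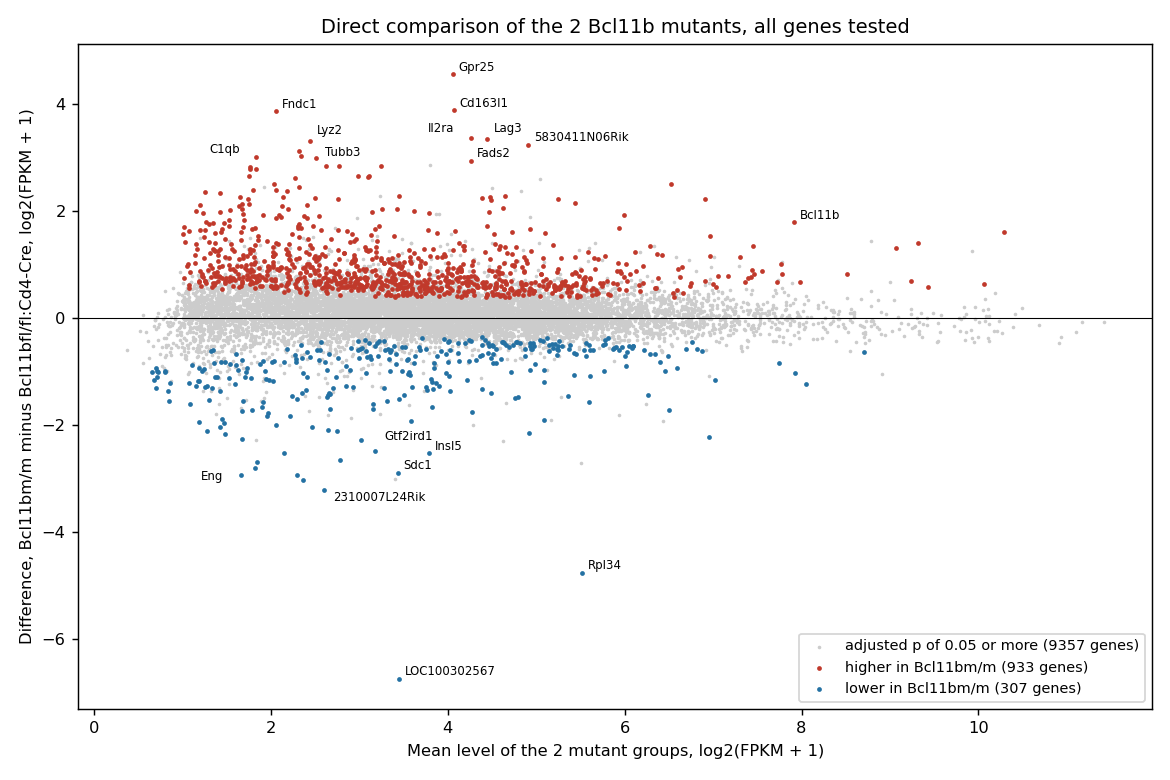
Each point is a gene: the horizontal axis gives its level, log2(mean FPKM + 1) averaged over the 2 mutant groups, and the vertical axis the fitted difference, Bcl11bm/m minus Bcl11bfl/fl:Cd4-Cre, on the log2(FPKM + 1) scale. The 933 genes higher and 307 genes lower at an adjusted p-value under 0.05 are coloured, a selection of the genes described is labelled, and Gpr25 at 4.55 and Rpl34 at -4.77 lie at the ends among protein-coding genes.

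The 12 largest increases among protein-coding genes were Gpr25, Cd163l1, Fndc1, Il2ra, Lag3, Lyz2, 5830411N06Rik, Olfr524, Fes, C1qb, Tubb3 and Fads2. These and the 12 largest decreases were chosen for this difference, so their direct values and their place against wild-type are a description. Fndc1, Olfr524 and Fes reached the filter of 1 FPKM only through the Bcl11bm/m libraries. In 11 of the 12 the Bcl11bm/m libraries were also above all 5 wild-type libraries, while the Bcl11bfl/fl:Cd4-Cre libraries were above wild-type in 4, overlapped it in 5 and were below it in 3. Over all genes tested, the Bcl11bm/m libraries were above all wild-type libraries for 14.8% of genes and below them for 11%, and the Cd4-Cre libraries were above for 5.51% and below for 10.8%.

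A first set was above wild-type in Bcl11bm/m, while the late-deletion libraries overlapped the wild-type range. Overlap does not mean an equal level. By limma's test of Cd4-Cre against wild-type, Gpr25 was higher (0.85, adjusted p = 0.0409) and Lag3 lower (-0.75, adjusted p = 0.0275). Fndc1, Il2ra, Tubb3 and Cd93 did not pass that test (adjusted p = 0.681 to 0.995). Gpr25 (chromosome 1, 138155491 to 138157450), a G protein-coupled receptor, was at 111, 67.1 and 61.5 FPKM in Bcl11bm/m and at 4.02, 2.48, 1.81 and 1.51 FPKM after late deletion, with 0.409 to 1.93 FPKM in wild-type. The 2 mutant groups lay far apart, by 4.55 (SE 0.28, adjusted p = 1.12e-04), a 32.6-fold ratio of means. Fndc1, a fibronectin type III domain protein, was at 20.7, 13.4 and 11.3 FPKM in Bcl11bm/m and between 0.013 and 0.211 FPKM in the 4 Cd4-Cre libraries, a difference of 3.86 (SE 0.21, adjusted p = 9.12e-05). Its wild-type libraries were between 0 and 0.0286 FPKM. Il2ra, the α chain of the interleukin-2 receptor and a marker of double-negative (DN) thymocytes, was at 117, 38.7 and 33.5 FPKM in Bcl11bm/m and at 5.82, 2.87, 2.19 and 8.18 FPKM after late deletion. Wild-type libraries had 2.68 to 5.25 FPKM of Il2ra, which the Cd4-Cre libraries straddled, and the direct difference was 3.37 (SE 0.48, adjusted p = 0.00537). Lag3, an inhibitory receptor that binds MHC class II, was at 76.1, 63.2 and 64.0 FPKM in Bcl11bm/m and at 5.28, 5.17, 7.97 and 5.14 FPKM after late deletion. Wild-type had 6.90 to 15.0 FPKM of Lag3, so only Cd4-Cre replicate 3 was inside the wild-type range, and the direct difference was 3.33 (SE 0.16, adjusted p = 7.92e-05). Tubb3, a β-tubulin known from neurons, was at 20, 11.8 and 13.7 FPKM against 1.20, 0.419, 1.38 and 1.11 FPKM, with 0.425 to 1.70 FPKM in wild-type. Cd93, a C-type lectin-like receptor of early progenitors that was named after its values were seen, was at 20.2, 16.1 and 15.8 FPKM against 1.42, 1.42, 1.91 and 1.49 FPKM.

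In a second set all libraries of both mutants were above the wild-type range, and Bcl11bm/m was higher. By limma's test of Cd4-Cre against wild-type, Olfr524 (adjusted p = 0.138) and Fes (adjusted p = 0.101) did not pass. Cd163l1 (adjusted p = 0.0346), 5830411N06Rik (adjusted p = 0.00933) and Gas7 (adjusted p = 0.0223) did. Cd163l1 and 5830411N06Rik encode scavenger receptor cysteine-rich proteins known from γδ T cells, and they lie on chromosome 7 beside the olfactory receptor gene Olfr524 within 147387642 to 147485690 (NCBIM37). Cd163l1 was at 60.8, 59.0 and 36.3 FPKM in Bcl11bm/m and at 13.4, 0.419, 1.38 and 2.15 FPKM after late deletion, while wild-type libraries did not exceed 0.0506 FPKM. Olfr524 was at 7.76, 19.6 and 12.8 FPKM against 2.25, 0.241, 0.0755 and 0.391 FPKM, and was listed at 0 in all 5 wild-type libraries. 5830411N06Rik was at 48.3, 91.2 and 75.3 FPKM against 32.7, 2.16, 1.84 and 9.23 FPKM. In the Cd4-Cre group the 3 neighbours were highest in the same library, replicate 1. The direct differences were 3.88 (SE 0.67, adjusted p = 0.0109) for Cd163l1, 3.11 (SE 0.41, adjusted p = 0.00385) for Olfr524 and 3.24 (SE 0.78, adjusted p = 0.0327) for 5830411N06Rik. The last of these was lost, at an adjusted p of 0.0576 to 0.103, without Bcl11bm/m replicate 1, 2 or 3 or Cd4-Cre replicate 2 or 4. Fes, a cytoplasmic tyrosine kinase best known in myeloid cells, was at 14.7, 13.4 and 11.5 FPKM against 0.517, 0.462, 1.76 and 0.489 FPKM, with 0.189 to 0.281 FPKM in wild-type. Gas7, a growth arrest protein named after its values were seen, followed the same order, with a 7.07-fold ratio of means between the mutants.

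In another set the mutants lay on opposite sides of wild-type. Fads2, a fatty acid desaturase, was at 46.4, 53.8 and 54.2 FPKM in Bcl11bm/m, at 8.26 to 17.4 FPKM in wild-type and at 4.48, 7.32, 8.15 and 4.26 FPKM after late deletion, with no overlap between the 3 groups. Its direct difference was 2.93 (SE 0.21, adjusted p = 2.72e-04). Ada, adenosine deaminase, was named after its values were seen. It was at 85.3, 92.6 and 90.1 FPKM, 43.6 to 63.6 FPKM and 20.3, 27.2, 13.5 and 18.6 FPKM in the same order of groups, a direct difference of 2.15 (SE 0.20, adjusted p = 8.15e-04). Its neighbour on chromosome 2, Pkig, an inhibitor of protein kinase A named in the same way, was at 37.5, 47.5 and 57.1 FPKM in Bcl11bm/m, which overlapped wild-type at 12.2 to 39.9 FPKM, and at 8.50, 11.2, 10.6 and 7.55 FPKM after late deletion, below it.

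The other 2 of the 12, Lyz2 (lysozyme) and C1qb (a complement component made by macrophages), are myeloid genes. Lyz2 was at 37.7, 10.9 and 5.53 FPKM in Bcl11bm/m, at 2.19 to 7.05 FPKM in wild-type and at 1.46, 0.107, 0.433 and 0.172 FPKM after late deletion. C1qb was at 16.2, 7.63 and 4.96 FPKM, 0.838 to 3.41 FPKM and 0.405, 0, 0.133 and 0.258 FPKM in the same order. Both were highest in Bcl11bm/m replicate 1, and without it the differences were 2.59 for Lyz2 (adjusted p = 0.0109) and 2.59 for C1qb (adjusted p = 0.00194). The summed FPKM of the 15 myeloid markers was 81.48, 29.26 and 20.24 in Bcl11bm/m, 5.84 to 16.09 in Bcl11bfl/fl:Cd4-Cre and 12.15 to 18.84 in wild-type. Lyz2 is itself one of these markers, and without it the sums were 43.8, 18.33 and 14.71 in Bcl11bm/m, 5.73 to 15.66 after late deletion and 9.47 to 12.17 in wild-type, so that the mutants overlapped. The part of such cells in these differences was not tested.

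The 12 largest decreases were Rpl34, 2310007L24Rik, Cldn4, Adam12, Eng, Sdc1, Art1, Irak3, Rab6b, Insl5, Lrig1 and Gtf2ird1. In 8 of them the Bcl11bm/m libraries were below all wild-type libraries, and in 5 the Bcl11bfl/fl:Cd4-Cre libraries were above all of them, Insl5 and Eng doing both.

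Genes below the wild-type range in Bcl11bm/m that overlapped it after late deletion made up 6 of the 12. Gtf2ird1, a transcription factor of the TFII-I family, was at 2.41, 2.15 and 3.73 FPKM in Bcl11bm/m, at 20.2, 30.0, 11.8 and 21.1 FPKM after late deletion and at 29.3 to 37.7 FPKM in wild-type. Its direct difference was -2.49 (SE 0.28, adjusted p = 0.00195). Only Cd4-Cre replicate 2 was inside the wild-type range of Gtf2ird1, which was lower after late deletion than in wild-type by limma's test (-0.70, adjusted p = 0.0456). Cldn4, Art1, Lrig1, Adam12 and 2310007L24Rik did not pass that test (adjusted p = 0.0966 to 0.604). Cldn4, a claudin of tight junctions that DP thymocytes also express, was at 0, 1.81 and 0.734 FPKM against 17.1, 9.50, 9.22 and 17.5 FPKM, with 7.94 to 27.3 FPKM in wild-type. The direct difference of Cldn4 was -3.02 (SE 0.36, adjusted p = 0.00256). Art1, an ADP-ribosyltransferase of the cell surface, was at 0.602, 0.200 and 0.195 FPKM against 7.68, 9.52, 5.53 and 10.9 FPKM. Lrig1, a membrane protein that dampens growth factor receptors, was at 0.460, 0.864 and 1.04 FPKM against 11.7, 8.09, 4.38 and 16.2 FPKM. Adam12, a membrane metalloprotease, and the proline-rich gene 2310007L24Rik (now Prr29) had direct differences of -2.94 and -3.22. Among genes at higher levels, named after their values were seen, Ldhb, a lactate dehydrogenase subunit, was at 27.6, 78.0 and 69.3 FPKM against 251, 267, 184 and 332 FPKM. Gtf2h4, a subunit of the basal transcription factor TFIIH, was at 13.2, 13.2 and 12.9 FPKM against 60.9, 78.3, 38.1 and 80.0 FPKM.

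In other decreases the late-deletion libraries were above wild-type. Eng, Irak3 and Sdc1 reached the filter of 1 FPKM only through the Cd4-Cre libraries, which favours genes that are high there, so their calls are a description. Eng, endoglin, a co-receptor for TGF-β, was at 0.113, 0.150 and 0.146 FPKM in Bcl11bm/m, at 0.310 to 1.22 FPKM in wild-type and at 6.34, 7.96, 10.0 and 6.89 FPKM after late deletion. The 4 Cd4-Cre libraries were close together and the direct difference was -2.94 (SE 0.17, adjusted p = 1.05e-04). Irak3, an inhibitory member of the interleukin-1 receptor kinase family, was at 0.528, 0 and 0.427 FPKM against 6.19, 3.16, 18.6 and 7.42 FPKM, a difference of -2.69 (SE 0.45, adjusted p = 0.00935). Sdc1, syndecan-1, was above wild-type (at most 0.403 FPKM) in both mutants, at 1.41, 2.29 and 3.14 FPKM in Bcl11bm/m and at 26.0, 4.46, 85.0 and 24.2 FPKM after late deletion. Its call (adjusted p = 0.0421) was lost, at 0.0859 to 0.107, without any 1 Bcl11bm/m library or without Cd4-Cre replicate 1 or 4. Insl5, a relaxin-family peptide hormone, was at 3.80, 4.03 and 6.38 FPKM against 32.6, 33.6, 21.2 and 42.2 FPKM, on either side of wild-type at 12.8 to 20.3 FPKM. Xkrx, a membrane protein of the XK family named after its values were seen, had the same order, with 8.14, 10.9 and 9.26 FPKM, 13.0 to 18.6 FPKM and 33.1, 25.6, 43.9 and 37.0 FPKM in Bcl11bm/m, wild-type and Bcl11bfl/fl:Cd4-Cre. Rab6b, a Golgi trafficking GTPase, differed by -2.66 (SE 0.46, adjusted p = 0.0109) and overlapped wild-type in both mutants.

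Rpl34, a ribosomal protein gene, is uncertain, since it belongs to a family with near-identical pseudogene copies that can share its reads. It was at 12.2, 4.54 and 4.71 FPKM in Bcl11bm/m, which overlapped wild-type at 5.95 to 8.51 FPKM, and at 188, 57.8, 425 and 360 FPKM after late deletion, above it, while the copy Rpl34-ps1 was at 863, 545 and 614 FPKM against 571, 848, 554 and 542 FPKM (difference 0.10, adjusted p = 0.81). A larger decrease, -6.74, belonged to LOC100302567, which is not protein-coding and was listed at 0 in the 3 Bcl11bm/m libraries, at 42.6 to 165 FPKM in the Cd4-Cre libraries and at 0 to 233 FPKM in wild-type.

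**Figure D2:**
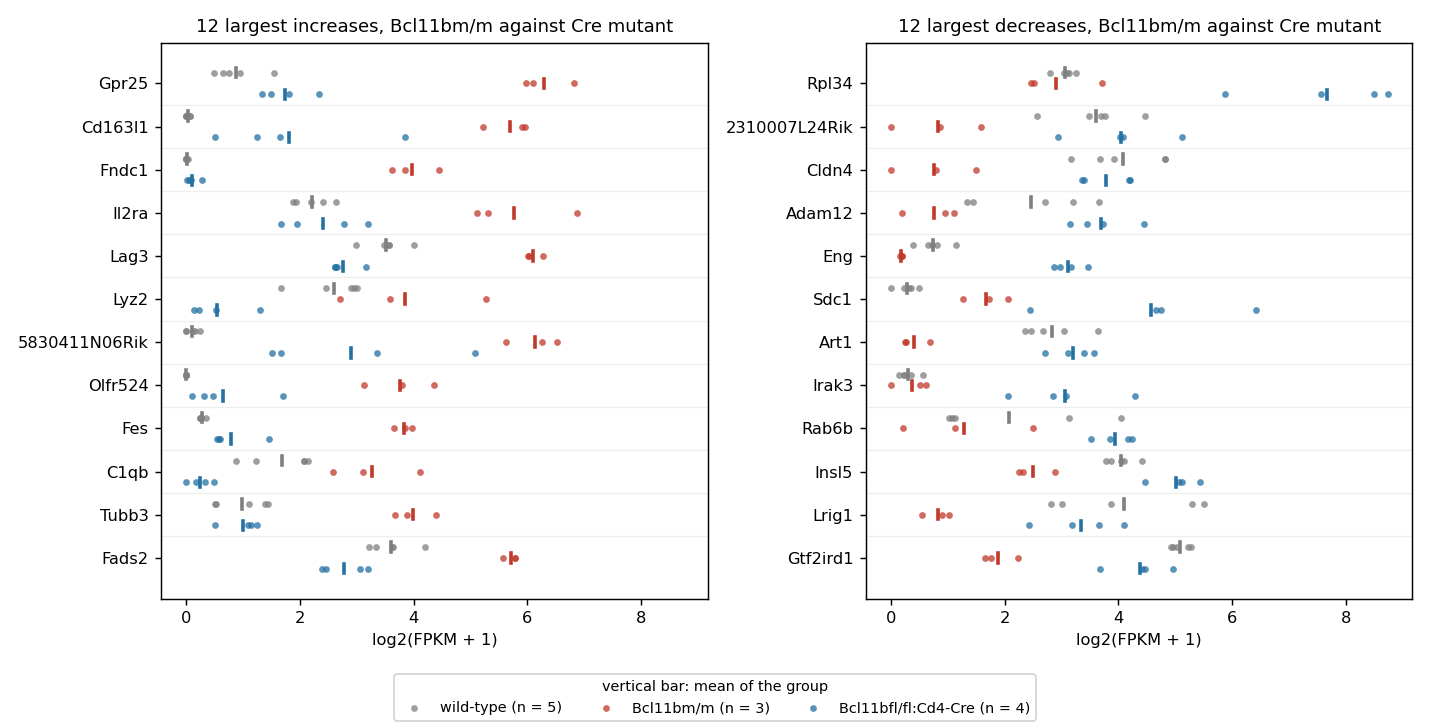
The horizontal axis gives the level, log2(FPKM + 1), of the 12 largest increases (left) and the 12 largest decreases (right) among protein-coding genes, with a point for each library and a bar at the mean of each group. No Bcl11bm/m point overlaps a Bcl11bfl/fl:Cd4-Cre point in either panel, which the choice of genes required, while the wild-type points sit with the Cd4-Cre points for Tubb3 and Cldn4 and with the Bcl11bm/m points for Irak3.

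The start sites of these genes were read for the motif that Runx proteins recognise, since Runx1 and Runx3 act in the lineage choice of these cells. The letters searched were ACCACA and ACCGCA on both strands, in the 250 bases before each RefSeq start (GRCm38.p6). A start was on record for 11 of the 12 increases and 11 of the 12 decreases, and 4 and 1 of them held the motif. A gene was counted if any of its starts held the motif. The share was 20.4% of 683 matched protein-coding genes higher in Bcl11bm/m and 20.4% of 235 lower. It was 20.8% of 8192 matched protein-coding genes tested and 20.9% of all 27025 genes with a start on record, so it was close to the background in both directions. Counted by single promoter, the share was 18.6% of all 32851. The 5 windows with a match are shown with the motif in capitals, read 5′ to 3′ on the strand of the gene, each ending at the base before the start.
Gpr25: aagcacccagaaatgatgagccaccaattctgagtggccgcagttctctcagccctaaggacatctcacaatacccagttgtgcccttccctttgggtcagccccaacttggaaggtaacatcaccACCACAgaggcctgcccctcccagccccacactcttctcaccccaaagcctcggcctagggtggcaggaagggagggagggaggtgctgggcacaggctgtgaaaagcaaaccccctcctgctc
Il2ra: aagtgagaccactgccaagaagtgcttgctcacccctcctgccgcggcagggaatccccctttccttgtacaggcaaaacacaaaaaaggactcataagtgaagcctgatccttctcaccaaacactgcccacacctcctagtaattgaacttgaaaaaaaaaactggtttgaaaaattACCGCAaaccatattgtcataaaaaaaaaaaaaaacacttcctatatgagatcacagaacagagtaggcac
Lyz2: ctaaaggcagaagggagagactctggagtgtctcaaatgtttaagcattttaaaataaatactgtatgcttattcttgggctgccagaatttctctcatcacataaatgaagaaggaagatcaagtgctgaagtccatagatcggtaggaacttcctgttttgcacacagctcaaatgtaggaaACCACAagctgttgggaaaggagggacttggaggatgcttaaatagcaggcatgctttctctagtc
Fads2: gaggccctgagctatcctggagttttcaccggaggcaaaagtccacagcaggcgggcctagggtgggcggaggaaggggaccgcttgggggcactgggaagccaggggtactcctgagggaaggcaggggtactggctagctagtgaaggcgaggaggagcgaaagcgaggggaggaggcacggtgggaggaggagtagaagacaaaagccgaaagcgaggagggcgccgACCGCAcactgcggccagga
Irak3: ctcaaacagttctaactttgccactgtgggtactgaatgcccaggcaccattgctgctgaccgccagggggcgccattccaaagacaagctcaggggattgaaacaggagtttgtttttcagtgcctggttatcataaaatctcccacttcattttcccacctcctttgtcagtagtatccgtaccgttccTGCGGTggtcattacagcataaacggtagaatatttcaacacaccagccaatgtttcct

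These windows lie at chr1:136260927-136261176 on the minus strand for Gpr25, chr2:11642542-11642791 on the plus strand for Il2ra, chr10:117282273-117282522 on the minus strand for Lyz2, chr19:10101504-10101753 on the minus strand for Fads2 and chr10:120202131-120202380 on the minus strand for Irak3 (GRCm38.p6). The motif began 124 bases before the start in Gpr25, 71 in Il2ra, 66 in Lyz2, 20 in Fads2 and 59 in Irak3, where it was read on the other strand. A match describes the letters and shows no binding.

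Of 16 lineage factors listed, 15 passed the filter of a mean of at least 1 FPKM, 3 were higher in Bcl11bm/m (Bcl11b, Lef1 and Runx1), where 8.8% of all genes tested were, none was lower in limma's test, and the list's median difference was 0.34 against 0.095 for all genes. The count of higher genes was 1 without Bcl11bm/m replicate 3, 2 without Bcl11bm/m replicate 2 and 6 without Cd4-Cre replicate 3, and Bcl11b itself is the targeted gene. With quantile normalization 5 genes were higher, and 5 were with library quality weights, a fit in which 15.5% of all genes were higher. In each of the 3 other scalings, with library quality weights and without Bcl11bm/m replicate 1, 1 gene was lower. Zbtb7b was at 50.4, 46.5 and 41.1 FPKM in Bcl11bm/m and at 33.1, 9.44, 56.6 and 23.8 FPKM after late deletion, with at most 0.216 FPKM in wild-type. The Bcl11bm/m libraries were close to each other and fell inside the wide range of the Cd4-Cre libraries, with a difference of 0.81 (95% interval -0.27 to 1.89, adjusted p = 0.293, exact permutation p = 0.229). Runx3 was at 18.3, 16.3 and 14.2 FPKM against 16.5, 11.5, 34.7 and 24.4 FPKM, with 1.97 to 6.40 FPKM in wild-type. Its difference was -0.29 (95% interval -1.01 to 0.42, adjusted p = 0.572, exact permutation p = 0.514). Cd4-Cre replicate 2 was lowest and replicate 3 highest for both Zbtb7b and Runx3.

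Lef1, an HMG-box factor of T cell development, was at 204, 195 and 218 FPKM in Bcl11bm/m against 112, 146, 129 and 129 FPKM, a difference of 0.67 (SE 0.12, adjusted p = 0.0129) that was lost without Bcl11bm/m replicate 3 (adjusted p = 0.0652). Runx1, the Runx protein of DP cells, was at 40.6, 43.6 and 47.9 FPKM against 30.3, 28.3, 25.9 and 32.1 FPKM, a difference of 0.58 (SE 0.11, adjusted p = 0.016) that was lost without Bcl11bm/m replicate 2 or 3 (adjusted p = 0.0583 and 0.0783) and after rescaling without short RNAs (adjusted p = 0.06). Gata3, needed for CD4 lineage cells, was at 57.3, 59.6 and 47.6 FPKM against 29.5, 34.8, 49.2 and 31.8 FPKM (adjusted p = 0.0625). The chromatin organiser Satb1 (0.16, adjusted p = 0.534), the HMG-box factor Tcf7 (-0.27, adjusted p = 0.456) and the zinc-finger protein Patz1 (-0.13, adjusted p = 0.705) did not pass. Foxp3, the regulatory T cell factor, was at most 0.147 FPKM, Cd40lg, a helper T cell ligand, at most 0.435 FPKM and Sfpi1, which encodes PU.1 of myeloid cells, at most 2.59 FPKM in any library, and all 3 were below the filter. Sfpi1 was at 2.59, 1.72 and 0.418 FPKM in Bcl11bm/m and at 0.346, 0.0805, 0.252 and 0.130 FPKM after late deletion.

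Among 23 coreceptor and TCR signalling genes, all tested, 3 were higher in Bcl11bm/m and none was lower by limma (12 of the 23 had an unadjusted p-value under 0.05 in either direction, as did 29.3% of all genes tested), with a median of -0.10. The split changed with the scaling, to 2 higher and 5 lower with median-ratio scaling, 2 and 2 with quantile normalization and 2 and 3 after rescaling without short RNAs, and it was 4 and 6 with library quality weights. Without 1 library, 1 gene was called higher at the fewest, without Bcl11bm/m replicate 2 or 3, and 4 at the most, without Cd4-Cre replicate 3. Over all genes tested, 8.8% were higher and 2.9% lower. The members that passed as deposited were Cd28, the costimulatory receptor (1.002, SE 0.20, adjusted p = 0.0175), Themis, a TCR signalling adaptor (0.78, SE 0.12, adjusted p = 0.00613), and Ptprc, the phosphatase CD45 (0.68, SE 0.18, adjusted p = 0.0433). Cd28 was at 98.9, 86.7 and 83.8 FPKM in Bcl11bm/m, inside the wild-type range of 78.9 to 110 FPKM, and at 41.8, 61.9, 46.2 and 31.8 FPKM after late deletion, below it. The Cd28 call was lost without Bcl11bm/m replicate 2 or 3 or Cd4-Cre replicate 1 (adjusted p = 0.0558 to 0.0585), and that of Ptprc without any single library other than Cd4-Cre replicate 1 (adjusted p = 0.0573 to 0.122) and in each of the 3 other scalings (adjusted p = 0.0846 to 0.0919). Cd4 was at 318, 298 and 281 FPKM in Bcl11bm/m and at 445, 527, 331 and 569 FPKM after late deletion. The groups did not overlap, as for 7.81% of genes with Bcl11bm/m below and 19.2% with Bcl11bm/m above, and the difference of -0.62 had an adjusted p of 0.078. Cd8b1 also did not overlap, at 933, 781 and 820 FPKM against 1069, 1466, 1039 and 1072 FPKM (-0.45, adjusted p = 0.155), whereas Cd8a did, at 812, 698 and 697 FPKM against 661, 776, 591 and 760 FPKM (0.08, adjusted p = 0.774).

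**Figure D3:**
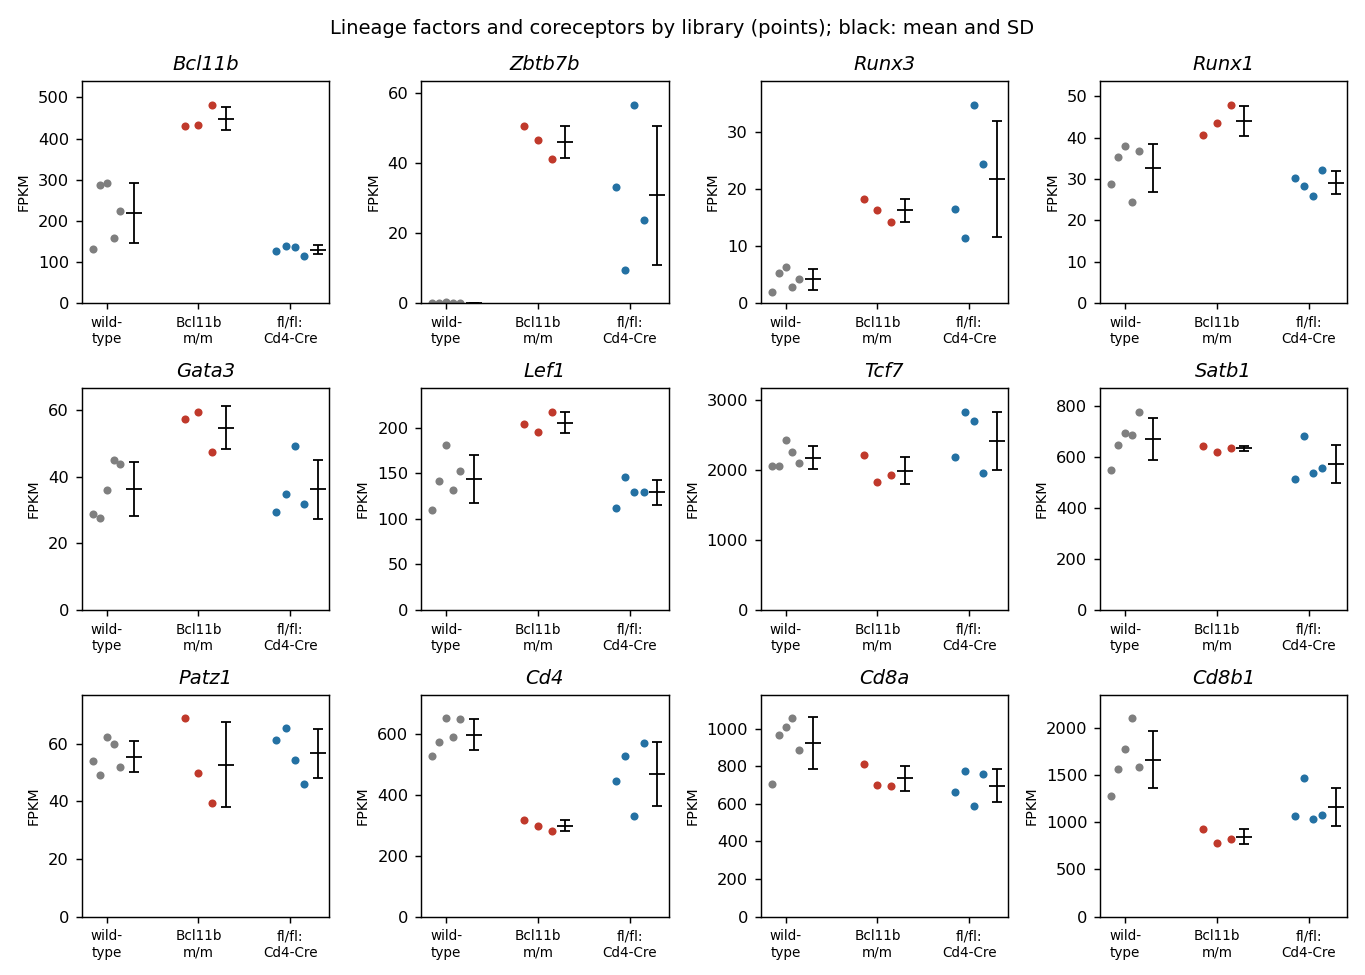
Each panel gives the FPKM of a gene in every library (points) with the mean and SD of the group in black, for 5 wild-type, 3 Bcl11bm/m and 4 Bcl11bfl/fl:Cd4-Cre libraries. Bcl11b separates all Bcl11bm/m from all Cd4-Cre libraries, while for Zbtb7b the 3 Bcl11bm/m libraries at 41.1 to 50.4 FPKM fall within the Cd4-Cre range of 9.44 to 56.6 FPKM.

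Of 14 genes of the DP programme, 3 passed the test, against 11.7% of all genes tested. Of these, 1 was higher (Tcf12, which encodes the E protein HEB) and 2 were lower (Slamf1 and Plxnd1), and the list's median was -0.03. That median was 0.081 without Cd4-Cre replicate 2, 0.046 without Bcl11bm/m replicate 2 and -0.13 without Bcl11bm/m replicate 1. Rag1 (0.08, adjusted p = 0.899) and Dntt, the terminal transferase that adds bases at gene segment joints (-0.12, 95% interval -0.53 to 0.28, adjusted p = 0.683) did not pass. Tcf12 was at 274, 214 and 213 FPKM in Bcl11bm/m against 128, 121, 133 and 141 FPKM (0.82, SE 0.13, adjusted p = 0.00777). Slamf1, a homophilic receptor of DP cells, was at 6.91, 8.19 and 7.22 FPKM against 23.2, 25, 13.3 and 22.5 FPKM (-1.35, SE 0.20, adjusted p = 0.00637), with 21.6 to 30.6 FPKM in wild-type. Plxnd1, a semaphorin receptor that guides DP thymocytes, was at 22.8, 61.2 and 58.3 FPKM against 141, 129, 94.3 and 119 FPKM (-1.44, SE 0.32, adjusted p = 0.0253). The Plxnd1 call was lost without Cd4-Cre replicate 1 or 4 (adjusted p = 0.0751 and 0.0567).

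Of 24 genes of early progenitors and DN cells, 11 passed the filter, 5 of them were higher in Bcl11bm/m and none was lower, against 8.8% and 2.9% of all genes tested. Beside Il2ra these were Il7r, Flt3, Kit and Cd44. Kit and Flt3 reached the filter only through the Bcl11bm/m libraries, which favours genes that are high there, so their calls are a description. The median difference of the 11 was 1.04, but it was 0.473 without Bcl11bm/m replicate 1, 0.344 without Cd4-Cre replicate 2, 0.544 with library quality weights and 0.083 over all 24 genes with no filter. Il7r, the interleukin-7 receptor that DP cells normally shut off, was at 25.8, 13.3 and 12.2 FPKM in Bcl11bm/m and at 4.08, 1.45, 8.96 and 1.55 FPKM after late deletion, with at most 0.0885 FPKM in wild-type. Flt3, a receptor kinase of multipotent progenitors, was at 2.86, 4.42 and 5.81 FPKM against 0.226, 0.132, 0.872 and 0.192 FPKM (1.98, SE 0.25, adjusted p = 0.00334). Kit, the stem cell factor receptor, was at 3.09, 2.98 and 2.95 FPKM against 0.735, 0.238, 0.527 and 0.563 FPKM (1.41, SE 0.17, adjusted p = 0.00237). Cd44, the hyaluronan receptor, was at 16.3, 17.5 and 17.4 FPKM against 5.63, 7.81, 12.6 and 3.61 FPKM (1.21, SE 0.31, adjusted p = 0.041). The list was not uniform, and 8 of the 11 had a positive difference. Ptcra, which encodes the pre-TCR α chain, was named after its values were seen and did not pass. It was at 12.2, 5.34 and 5.90 FPKM in Bcl11bm/m and at 67.0, 27.0, 8.97 and 64.7 FPKM after late deletion (-2.01, adjusted p = 0.0736). The calls of Il7r and Cd44 were each lost without any single library other than Cd4-Cre replicate 3, at an adjusted p of 0.058 to 0.091 and of 0.0561 to 0.115, and 3 to 5 genes of the list were called higher when 1 library was left out. Without Cd4-Cre replicate 3, and likewise with library quality weights, 2 were called lower. Cd44 also lost its call with median-ratio scaling (adjusted p = 0.0549) and quantile normalization (adjusted p = 0.0565).

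Of 20 tested genes of post-selection maturation, 3 were higher in Bcl11bm/m, none was lower and the median was 0.78. With 1 library left out, 7 were higher without Cd4-Cre replicate 3 and 2 without any other library, against 8.8% of all genes tested. Bcl2, a survival factor, was at 6.29, 4.61 and 4.69 FPKM against 1.33, 2.87, 1.68 and 1.14 FPKM (1.20, SE 0.22, adjusted p = 0.0135). It was the 1 of 14 survival and death genes that passed, where 8.8% of all genes tested were higher. In that list 1 gene was lower with median-ratio scaling, quantile normalization or library quality weights, and without Bcl11bm/m replicate 1. Ms4a4b, a tetraspanning membrane protein of T cells, passed at an adjusted p of 0.0482 although its groups overlapped, since Cd4-Cre replicate 3 had 20.2 FPKM and Bcl11bm/m replicate 3 had 18.5 FPKM. The Ms4a4b call was lost without any single library other than Cd4-Cre replicate 3 (adjusted p = 0.0851 to 0.128), with median-ratio scaling (adjusted p = 0.055) and with quantile normalization (adjusted p = 0.0526). Socs1 (0.05, adjusted p = 0.854) and Socs3 (0.49, adjusted p = 0.673), suppressors of cytokine signalling, did not pass. The Socs3 difference ran from 0.041 without Cd4-Cre replicate 2 to 0.978 without Cd4-Cre replicate 4.

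Genes of NK cells and cytotoxic cells gave 4 higher and none lower of 10 tested, out of 24 listed, with a median of 0.41, where 8.8% of all genes tested were higher. Over all 24 genes with no filter, 2 were higher and the median was -0.019. The median of the 10 was -0.091 without Cd4-Cre replicate 2, 0.626 without Bcl11bm/m replicate 3 and 0.945 without Cd4-Cre replicate 3. The count of higher genes was 1 without Bcl11bm/m replicate 2, 3 without Bcl11bm/m replicate 1 or Cd4-Cre replicate 3 and 2 without any other library. Prf1, perforin, was at 5.53, 5.63 and 4.21 FPKM in Bcl11bm/m and at 1.18, 0.983, 0.584 and 1.03 FPKM after late deletion, on either side of the wild-type range of 1.69 to 4.02 FPKM (1.66, SE 0.17, adjusted p = 0.00131). Gzma, granzyme A, was at 409, 202 and 217 FPKM against 139, 64.3, 160 and 76.4 FPKM (adjusted p = 0.0479), with 16.4 to 67.1 FPKM in wild-type, and lost its call without any single library other than Cd4-Cre replicate 3 (adjusted p = 0.0744 to 0.12) and with median-ratio scaling (adjusted p = 0.0577). Ccl5, a chemokine of effector cells, and Tyrobp, the adaptor DAP12, were the other members that passed. Ccl5 reached the filter only through the Bcl11bm/m libraries, and its call was lost without any single library other than Bcl11bm/m replicate 1 (adjusted p = 0.0502 to 0.0703). Tyrobp is also expressed by myeloid cells, whose markers moved in the same direction. It was at 21.2, 13.4 and 8.47 FPKM against 0.96, 0.251, 4.55 and 0.203 FPKM and its call was lost without Bcl11bm/m replicate 2 (adjusted p = 0.051). Of the NK receptor genes, Ncr1 was listed at 0 in 11 of the 12 libraries, whereas Klrb1c was at 0.301, 6.94 and 5.41 FPKM in Bcl11bm/m and at 5.14, 0.300, 21.8 and 2.11 FPKM after late deletion, with at most 0.605 FPKM in wild-type.

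Of 9 tested genes linked to γδ T cells, the 2 that passed were the neighbours Cd163l1 and 5830411N06Rik, where 8.8% of all genes tested were higher, and the list's median was -0.54. The median was -0.888 without Cd4-Cre replicate 3, and it was -0.143 over 15 genes with no filter. With a filter of 5 FPKM the median turned positive, at 3.235 over 3 genes, of which 2 were higher. Without Bcl11bm/m replicate 1, 1 gene was lower, and 2 were with library quality weights. Only 1 gene was called higher without any 1 Bcl11bm/m library or Cd4-Cre replicate 2 or 4. Of the remaining members, Sox13 (-1.61, adjusted p = 0.153), Blk (-1.37, adjusted p = 0.171) and Etv5 (-1.50, adjusted p = 0.0918) did not pass as deposited. Tmem176b (-0.89, adjusted p = 0.0985), Tmem176a (-0.54, adjusted p = 0.354), Maf (-0.45, adjusted p = 0.677) and Gpr183 (0.12, adjusted p = 0.822) did not pass either. Sox13, Blk and Maf reached the filter only through the Cd4-Cre libraries, which favours genes that are high there and lowers the list's median. Among 11 tested follicular helper and regulatory T cell genes, Lag3 and Cxcr5 were higher, none was lower and the median was -0.05. With median-ratio scaling, quantile normalization or without Cd4-Cre replicate 4, 1 was lower, and 2 were with library quality weights. The count of higher genes was 1 without any 1 Bcl11bm/m library or Cd4-Cre replicate 1 or 4, and 3 without Cd4-Cre replicate 3. The median was 0.095, 0.057 and 0.066 without Bcl11bm/m replicate 1, 2 and 3, and -0.128 without Cd4-Cre replicate 2. Cxcr5, the chemokine receptor of B cell follicles, was at 273, 214 and 206 FPKM in Bcl11bm/m and at 45.5, 14.6, 122 and 64.6 FPKM after late deletion, while wild-type libraries had 0.101 to 0.804 FPKM. The difference of 2.22 (SE 0.57, adjusted p = 0.0412) was lost without Bcl11bm/m replicate 1, 2 or 3 or Cd4-Cre replicate 1 or 4 (adjusted p = 0.068 to 0.105).

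Of 22 tested cytokine receptor and signalling genes, 4 were higher (Il2ra, Il7r, Ifngr1 and Tgfbr1) and none was lower, with a median of 0.10, against 8.8% higher and 2.9% lower of all genes tested. The count was 2 without Bcl11bm/m replicate 2 or 3 and 6 without Cd4-Cre replicate 3. In the fit without Cd4-Cre replicate 3, 1 gene was lower, and 3 were with library quality weights. The median was 0.002 without Cd4-Cre replicate 2, 0.187 without Cd4-Cre replicate 3 and 0 with median-ratio scaling. Ifngr1, the interferon-γ receptor, was at 852, 868 and 810 FPKM against 355, 273, 377 and 363 FPKM (1.31, SE 0.16, adjusted p = 0.00256), with 189 to 323 FPKM in wild-type. Tgfbr1, a TGF-β receptor, differed by 0.68 (SE 0.14, adjusted p = 0.018), which was lost without Bcl11bm/m replicate 2 or 3 (adjusted p = 0.0698 and 0.0803) and after rescaling without short RNAs (adjusted p = 0.0657). Of 20 migration and adhesion genes, 4 were higher, among them Gpr25, Cxcr5 and Cd44, and 1 was lower (Plxnd1), with a median of 0.10. With 1 library left out, 2 to 5 were higher, with 2 without any 1 Bcl11bm/m library or Cd4-Cre replicate 1 or 4, and 5 without Cd4-Cre replicate 3. The median of this list was -0.039 without Bcl11bm/m replicate 1, 0.359 without Cd4-Cre replicate 3 and 0.011 with median-ratio scaling. The median of all genes tested was 0.095.

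The interferon response list had a median of 0.91, with 3 of 15 tested genes higher and none lower, against 8.8% and 2.9% of all genes tested. Ifit2, an interferon-induced tetratricopeptide protein, was at 22.8, 20.4 and 19.2 FPKM against 7.15, 9.54, 9.70 and 9.53 FPKM (1.13, SE 0.13, adjusted p = 0.00243). Rsad2, the antiviral enzyme viperin (1.37, SE 0.30, adjusted p = 0.0249), and Ddx58, the RNA sensor RIG-I (0.79, SE 0.20, adjusted p = 0.0386), also passed, but Rsad2 was lost when any Bcl11bm/m library or Cd4-Cre replicate 1 or 4 was left out (adjusted p = 0.0509 to 0.0657), and Ddx58 without any single library other than Cd4-Cre replicate 3 (adjusted p = 0.0688 to 0.0994) and with median-ratio scaling (adjusted p = 0.0521). With 1 library left out, 7 members of the list passed without Cd4-Cre replicate 3, 2 without Cd4-Cre replicate 2 and 1 without any other.

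All 21 mitosis genes had a positive difference, with a median of 0.80 and a range of 0.48 to 1.44, but none passed limma's adjusted threshold and 5 had an unadjusted p-value under 0.05, as did 29.3% of all genes tested. Without Cd4-Cre replicate 2, 3 of them passed, and 8 passed with library quality weights, a fit in which 15.5% of all genes were higher. The median ran from 0.456 without Bcl11bm/m replicate 3 to 1.186 without Cd4-Cre replicate 2. Mki67, a marker of cycling cells, was named after its values were seen. It was at 27.5, 66.2 and 109 FPKM in Bcl11bm/m and at 31.7, 53.2, 17.7 and 10.1 FPKM after late deletion. Wild-type libraries had 50.3 to 148 FPKM of Mki67, and the 2 mutants overlapped. Of 19 S phase genes, 13 had a positive difference, none passed limma's threshold, 1 had an unadjusted p-value under 0.05, 2 passed with library quality weights and the median was 0.16. That median was -0.024 without Bcl11bm/m replicate 3, 0 without Cd4-Cre replicate 4 and 0.332 without Cd4-Cre replicate 2. Glucose uptake and glycolysis had 1 of 14 genes higher, where 8.8% of all genes tested were, Pkm2, pyruvate kinase, at 325, 283 and 317 FPKM against 121, 153, 178 and 162 FPKM (1.01, SE 0.15, adjusted p = 0.00644), and a median of -0.03. Of 7 stress and immediate-early genes none passed limma's threshold, 2 had an unadjusted p-value under 0.05 and the median was -0.30. The median was -0.096 without Bcl11bm/m replicate 2 and -0.126 without Cd4-Cre replicate 3, and 1 gene was lower without Bcl11bm/m replicate 1, with median-ratio scaling and with library quality weights. Of 3 tested genes of a fetal and imprinted growth list none passed limma's threshold and 1 had an unadjusted p-value under 0.05. Without Cd4-Cre replicate 3, and with library quality weights, 1 of the 3 was lower. The gene with an unadjusted p-value under 0.05, the fetal RNA-binding protein gene Igf2bp3, was named after its values were seen and was at 2.29, 3.10 and 2.16 FPKM against 5.47, 9.87, 2.17 and 7.44 FPKM (adjusted p = 0.142).

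**Figure D4:**
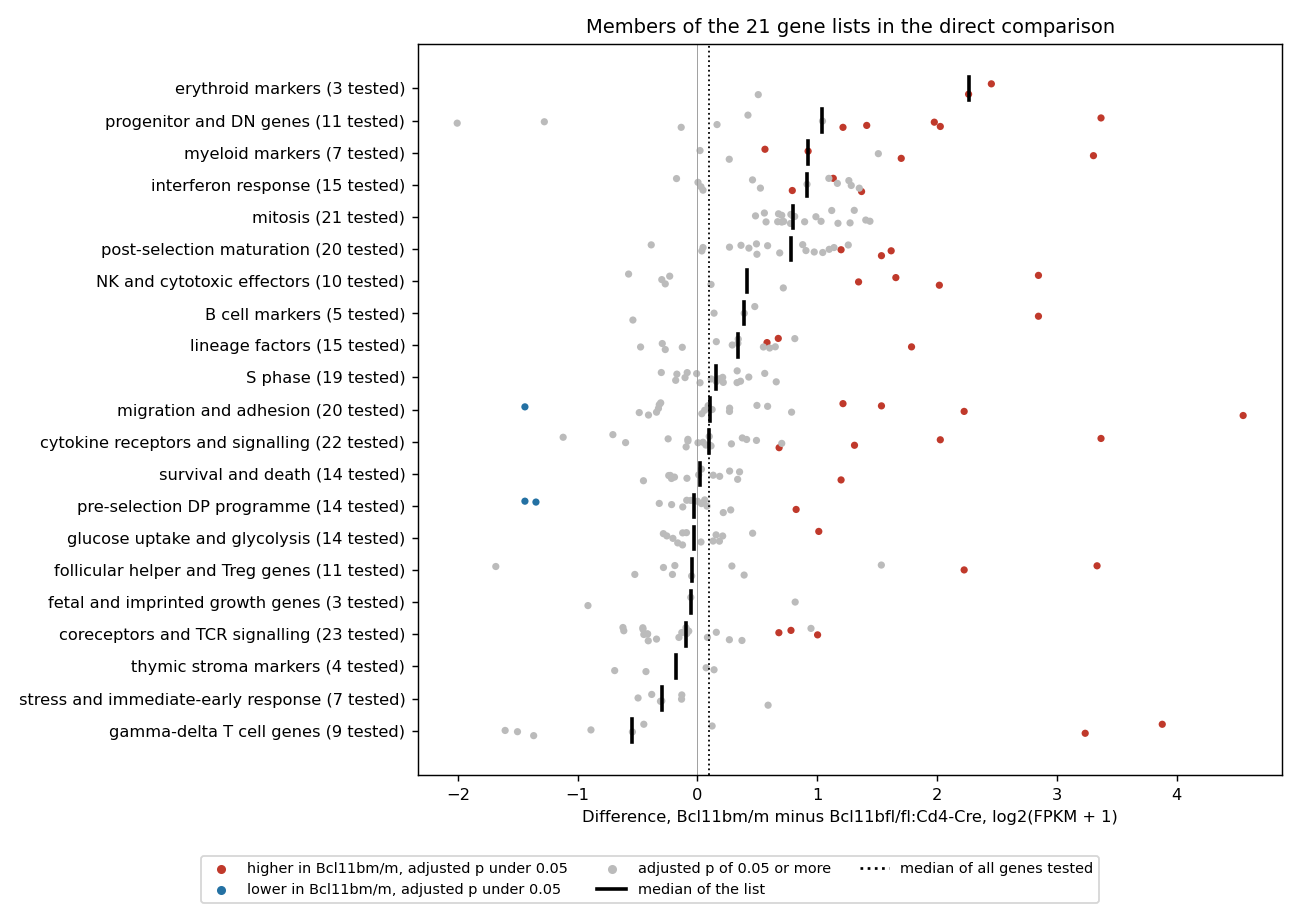
Each row is a gene list and each point a member that passed the filter, placed by its difference, Bcl11bm/m minus Bcl11bfl/fl:Cd4-Cre, on the log2(FPKM + 1) scale, with vertical jitter only. Red and blue points passed an adjusted p-value of 0.05, black bars are list medians and the dotted line is the median of all genes tested (0.095); the 21 mitosis genes are all to the right of 0 without any red point.

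Markers of some other cell types, which a sort for CD24hiTCRβlo CD4+CD8+ cells is meant to remove, also differed between the mutants. Of 15 myeloid markers, 7 were tested and 4 were higher in Bcl11bm/m (Lyz2, Mpeg1, Cd68 and Csf3r) with a median of 0.92, where 8.8% of all genes tested were higher. Mpeg1, a perforin-like protein of macrophages, was at 4.33, 2.40 and 1.48 FPKM against 0.158, 0.022, 0.138 and 0.0712 FPKM (1.70, SE 0.25, adjusted p = 0.00613). Cd68 and Csf3r were at an adjusted p of 0.0412 and 0.0447 and were lost when Bcl11bm/m replicate 1 was left out (adjusted p = 0.106 and 0.0686), as they were without most other single libraries. Quantile normalization also ended both calls (adjusted p = 0.0769 and 0.0741). C1qa and C1qc, named after their values were seen, followed C1qb, at 17.1, 6.07 and 4.03 FPKM and 19.3, 5.13 and 2.78 FPKM in Bcl11bm/m and at most 0.518 FPKM in the Cd4-Cre libraries. Mpeg1, Csf3r and Fcgr3, which did not pass the test, reached the filter only through the Bcl11bm/m libraries. Whichever library was left out, 2 or 3 of the list were higher (2 without any 1 Bcl11bm/m library or Cd4-Cre replicate 1 or 2). Of the defining markers below the filter, the receptor gene Csf1r was at 1.49, 1.05 and 0.579 FPKM in Bcl11bm/m and at most 0.118 FPKM after late deletion. Emr1, which encodes the macrophage marker F4/80, was at 1.32, 0.239 and 0.698 FPKM against at most 0.056 FPKM, and the granule gene Mpo was listed at 0 in all 3 Bcl11bm/m libraries.

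Of 13 B cell markers, 5 were tested and 1 was higher, where 8.8% of all genes tested were. It was Cd72, an inhibitory receptor of B cells, at 39.5, 18.1 and 15.6 FPKM in Bcl11bm/m against 2.47, 1.48, 4.91 and 1.22 FPKM (2.85, SE 0.40, adjusted p = 0.00471). The summed B cell markers ranged from 27.76 to 84.22 FPKM in Bcl11bm/m, 19.02 to 34.99 FPKM after late deletion and 17.13 to 25.97 FPKM in wild-type. Pax5, a transcription factor that defines B cells, was listed at 0 in all 5 wild-type libraries and was at 0.364, 0.241 and 0 FPKM in Bcl11bm/m and at 0.562, 0.181, 0.057 and 0 FPKM after late deletion. Cd79a, a chain of the B cell receptor complex, was at 10.7, 1.08 and 0.210 FPKM against 3.92, 1.78, 0.911 and 1.38 FPKM, with at most 0.446 FPKM in wild-type. Of 10 erythroid markers, 3 were tested and the globins Hba-a1 (2.45, SE 0.39, adjusted p = 0.00795) and Hbb-b2 (2.26, SE 0.43, adjusted p = 0.0149) were higher, again beside 8.8% of all genes. Their summed list was at 10.86 to 30.41 FPKM in Bcl11bm/m, 1.09 to 5.29 FPKM after late deletion and 2.66 to 34.72 FPKM in wild-type, and Hbb-b2 lost its call without Bcl11bm/m replicate 2 or Cd4-Cre replicate 1 (adjusted p = 0.0588 and 0.0518). Of 12 thymic stroma markers, 4 were tested, none passed limma's threshold or an unadjusted p-value of 0.05 (0 of 4), and Foxn1 was listed at 0 in 10 libraries. Their summed list was at 7.71 to 10.98 FPKM in Bcl11bm/m, 8.25 to 16.81 FPKM after late deletion and 6.33 to 8.95 FPKM in wild-type. The part of other cells in the genes higher in Bcl11bm/m was not tested.

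**Figure D5:**
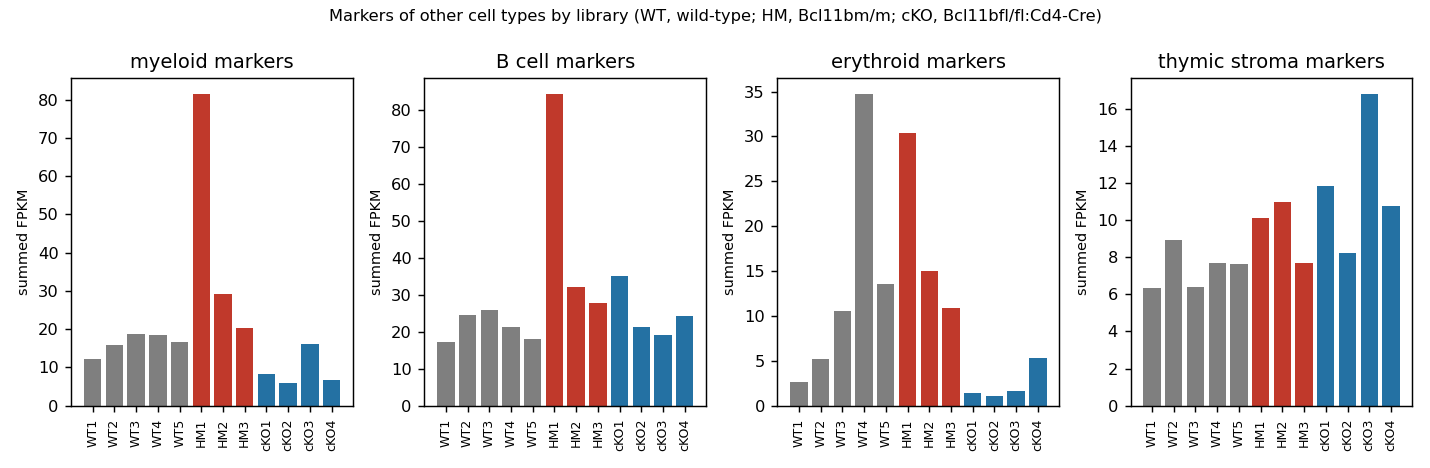
Bars give the summed FPKM of the markers of 4 other cell types in each of the 12 libraries. Bcl11bm/m replicate 1 has the tallest myeloid (81.48) and B cell (84.22) bars, and the 4 Bcl11bfl/fl:Cd4-Cre libraries have erythroid sums of at most 5.29 FPKM.

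The late-deletion libraries differed among themselves. Along the first principal component of the 12 libraries (42.2% of the variance of the genes tested), wild-type libraries lay at -42.5 to -24.5, Bcl11bm/m libraries at 29.1 to 39.9 and the Bcl11bfl/fl:Cd4-Cre libraries at 13.7, -6.9, 28.7 and 17.4, with replicate 2 nearest wild-type and replicate 3 nearest Bcl11bm/m. The second component (19.5%) set the mutants apart, with -27.4 to -14.4 in Bcl11bm/m and 18.1 to 28.7 in Bcl11bfl/fl:Cd4-Cre. Among 584 genes for which all Cd4-Cre libraries were above all wild-type libraries, replicate 3 was highest in 62.5% and replicate 2 lowest in 61.3%, against 31.7% and 24.3% of all genes tested. Trf, which encodes the iron carrier transferrin and was named after its values were seen, shows this order at 6.61, 2.31, 28.1 and 11.3 FPKM, below the 53.5, 43.6 and 43.0 FPKM of Bcl11bm/m. The median SD of a gene over libraries, on the log2 scale, was 0.276 in wild-type, 0.189 in Bcl11bm/m and 0.188 after late deletion.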

How the data were processed

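The authors aligned RNA-seq reads to the mouse genome with TopHat2 and estimated gene levels with Cufflinks 2.1.1, and the submitters' processing notes name build mm9. They deposited a table of FPKM values for 12 libraries, with no read counts, so depth was estimated from the steps of low values and is approximate. The library kit named in the labels differs from that in the methods, so library chemistry is uncertain. Rows of the short RNA classes Mir, Snord, Snora and Scarna were left out (724), and the test was run on the 10597 genes whose mean across all 12 libraries reached 1 FPKM. The 3 Bcl11bm/m and 4 Bcl11bfl/fl:Cd4-Cre libraries were compared on log2(FPKM + 1) with limma 3.58.1 (trend) in R 4.3.3, with Benjamini-Hochberg adjustment over all genes tested and a threshold of 0.05. Each mutant was compared with wild-type by the same limma test. An exact two-sided permutation test was used for Bcl11b, Zbtb7b and Runx3. Lists were described by counts and medians. The text names the 12 largest increases and 12 largest decreases among protein-coding genes that passed the test without overlap between groups. It also names list members that passed, set lineage genes, and some markers and list members that did not pass. Genes named after their values were seen are marked so, except Rag1, Rpl34-ps1 and LOC100302567, which were also named in that way. The genes and lists were chosen with earlier results of these data known. Gene positions are from GENCODE vM1 (NCBIM37), matched by symbol for 21698 of 23234 features, and promoters from RefSeq. Scripts were tested on simulated data. Alternatives covered the pseudocount, the low-value filter, 3 scalings, short RNAs, all groups in 1 fit, a replicate block, library weights and leaving out each library. Some list members are not reported here.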

Additional observations from a re-analysis of the deposited data

Results flagged for a closer look

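Single libraries stood apart from the rest of their group for 15 of 143 sets of values examined, against 7.2 that chance alone would give, since about 1 in 20 sets passes the criterion. Among the Bcl11bfl/fl:Cd4-Cre libraries, replicate 3 was high for Lag3 (7.975 FPKM, others 5.14 to 5.28), Fes (1.755, others 0.462 to 0.517), Flt3 (0.872, others 0.132 to 0.226) and Ms4a4b (20.221, others 5.107 to 6.281). Replicate 1 was high for the neighbours Cd163l1 (13.395, others 0.42 to 2.15) and Olfr524 (2.248, others 0.076 to 0.391) and low for Ifit2 (7.151, others 9.525 to 9.697). Replicate 2 was high for Cd8b1 (1465.85, others 1038.89 to 1072.3), and replicate 4 for the globins Hba-a1 (2.993, others 0.456 to 0.631) and Hbb-b2 (1.809, others 0 to 0.051). Among wild-type libraries, replicate 1 was high for Fes (0.281, others 0.189 to 0.196) and low for Ifngr1 (189.193, others 293.165 to 322.967). Replicate 2 was the single wild-type library with Fndc1 above 0 (0.029), replicate 3 was high for Zbtb7b (0.216, others 0 to 0.047) and replicate 4 for Hbb-b2 (11.087, others 0 to 0.174).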

How the results depend on the processing

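The calls numbered 933 higher and 307 lower, 1240 in all. With a filter of 5 FPKM they were 550 higher and 755 in all. Quantile normalization gave 608 higher and 628 lower, median-ratio scaling 545 lower, and library quality weights 1644 higher, 715 lower and 2359 in all. Leaving out 1 library at a time gave 319 to 976 higher, 95 to 337 lower and 414 to 1313 in all. A fit with the replicate number as a block gave 235, 77 and 312. Same-numbered libraries did not deviate together (correlations -0.079, -0.036 and -0.128). The numbers were not used as a pairing in the main test, but so few correlations cannot exclude one. Leaving out genes on X and Y, chosen after seeing the data, gave 904 higher and 303 lower. Of 57 called genes that the rule names, 39 could be tested in every alternative with all libraries and no block, since the 5 FPKM filter leaves out low genes, and 27 of the 39 kept their call in each. Of the 57, 48 kept it in the 3 other scalings, 33 with the block and 37 whichever library was left out. Differences near 0 changed sign without passing the test: Cd8a with median-ratio scaling (-0.019), Patz1 without Bcl11bm/m replicate 3 (0.058), Socs3 with quality weights (-0.054), and Socs1 with median-ratio scaling (-0.055), quantile normalization (-0.006), rescaling without short RNAs (-0.007), without Bcl11bm/m replicate 1 (-0.018) and without Cd4-Cre replicate 2 (-0.027). With 1 library left out, Patz1 ranged from -0.334 to 0.058, Socs1 from -0.027 to 0.13 and Socs3 from 0.041 to 0.978. The causes were not tested. The Bcl11bm/m libraries were the shallowest mutant libraries, which limits values near 0 FPKM there.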
